A study of Mus musculus with 2 samples.

Results

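Nos2 macrophages were the cells of the inflamed central nervous system that carried RNA of inducible nitric oxide synthase together with RNA of an arginine-handling or acute-phase gene. The rule took cells with 1 or more UMIs (counted RNA molecules) of Nos2, with 1 or more UMIs of Arg1, Slc7a2, Saa3, Inhba or Cfb, and with 0 UMIs of Cd3e, P2ry12 and Ly6g, which mark T cells, microglia and neutrophils. The members were thus chosen by measured UMIs of these 9 genes. Among 25603 cells with at least 500 genes, 1000 gene UMIs and under 10% of UMIs from mitochondrial genes, the rule found 601, of which 203 of 12305 came from Stat4fl/flCD11cCre mice and 398 of 13298 from WT mice.

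The data are 2 single-cell RNA libraries of the 10x Genomics 3' kit, 1 per genotype, from C57BL/6 mice with experimental autoimmune encephalomyelitis (EAE), a model of multiple sclerosis driven by T cells against myelin. In Stat4fl/flCD11cCre mice, Cre under the CD11c promoter acts on floxed Stat4 in CD11c-expressing cells, and WT mice were the controls. Both groups received a myelin oligodendrocyte glycoprotein (MOG) peptide in complete Freund's adjuvant and pertussis toxin, and mononuclear cells of the central nervous system were pooled within each group on day 15 and sorted as positive for MHC class II and CD11c. The labels do not state age, dose, the number of mice per pool, the floxed exons or whether WT mice were littermates. The series asks how an axis of IL-23 and STAT4 acts on classical dendritic cells in EAE, and the same sort brought these macrophages along.

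Inducible nitric oxide synthase, encoded by Nos2, makes nitric oxide from arginine in macrophages and is switched on by interferon-gamma together with microbial or cytokine signals. Arginase 1, encoded by Arg1, takes the same arginine to ornithine, and Nos2 and Arg1 are textbook marks of inflammatory and of alternatively activated macrophages. In EAE, nitric oxide-producing cells in the lesions arise largely from blood monocytes, and single macrophages with both enzymes are known there. Nos2 lies on mouse chromosome 11 at chr11:78920787-78960254 on the plus strand (GRCm38).

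The rule's genes were its own choice, so their levels are given as a description with no test. Summed Nos2 was 273 CPM (UMIs per 1e6 gene UMIs of the summed cells; Poisson interval 253 to 294) in Stat4fl/flCD11cCre and 386 CPM (366 to 407) in WT Nos2 macrophages. All intervals here are at the 95% level and cover counting error only, because cells of 1 pool are not replicates. A single Nos2 UMI was found in 82 of the 203 Stat4fl/flCD11cCre members and in 181 of the 398 WT members, 2 to 4 UMIs in 71 and 134, and 5 or more in 50 and 83. The median member carried 2 Nos2 UMIs in both libraries, and the richest cell carried 21 in Stat4fl/flCD11cCre and 49 in WT. Thus the members just inside the rule rest on 1 molecule of Nos2, and just outside it lay 65 Stat4fl/flCD11cCre and 88 WT cells that had Nos2 but none of the 5 companion genes. Cfb, complement factor B, was the most frequent companion, with a UMI in 86.2% of Stat4fl/flCD11cCre and 89.7% of WT members. Arg1 was found in 73.9% of Stat4fl/flCD11cCre and 69.3% of WT members, and Slc7a2, a cationic amino acid transporter that brings arginine into macrophages, in 70.4% and 63.1%. Inhba, the activin A subunit, was found in 50.2% of Stat4fl/flCD11cCre and 44.7% of WT members, and Saa3, an acute-phase protein, in 46.8% and 47.0%. Most members therefore held several companions: 35 Stat4fl/flCD11cCre and 53 WT cells had all 5, and only 9 and 19 entered through Cfb alone.

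Nos2 RNA was also found outside the rule. Of all Nos2 UMIs in kept cells, members held 48.8% (698 of 1429) in Stat4fl/flCD11cCre and 36.6% (1431 of 3907) in WT. Exclusion by P2ry12 took out 179 Stat4fl/flCD11cCre and 579 WT cells with Nos2 and a companion, and 132 and 367 of them had 5 or more P2ry12 UMIs. Those cells had a median of 28053 UMIs in Stat4fl/flCD11cCre and 29691 in WT, and 54.5% and 38.1% of them were among the 10% of cells with the highest Scrublet doublet scores. The part of doublets in them was not tested. After every cell was thinned to 2500 UMIs, Nos2 was found in 48.5% of Stat4fl/flCD11cCre and 55.4% of WT members. It was then found in 0.462% of Stat4fl/flCD11cCre and 1.40% of WT cells with a Cd3e UMI, T cells that should lack it, whose unthinned shares were 0.983% and 4.26% at median depths of 7210 and 6231 UMIs. The median depth of members was 11412 UMIs in Stat4fl/flCD11cCre and 8319.5 in WT. In cells with a Cd79a UMI, a B cell mark, the thinned share was 0.629% in Stat4fl/flCD11cCre and 3.92% in WT (unthinned 3.61% and 11.9%, at median depths of 15681.5 and 10917.5 UMIs). These background shares were higher in the WT library. Members hold Nos2 by rule, so their share is no measure against them. Among cells with any companion gene and the same exclusions, taken without regard to Nos2, the thinned share was 6.75% in Stat4fl/flCD11cCre and 10.2% in WT (unthinned 13.7% and 17.5%, at median depths of 9954 and 7371 UMIs).

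The macrophage label held for the members. Lyz2, lysozyme, reached 20038 CPM in Stat4fl/flCD11cCre and 14937 CPM in WT members, Csf1r, the receptor for macrophage growth factor, 510 CPM in both, and Cd68, a lysosomal protein of macrophages, 404 and 436 CPM. Ly6c2, a mark of inflammatory monocytes, stood at 1079 CPM in Stat4fl/flCD11cCre and 1318 CPM in WT members. Dendritic cell genes were low: Flt3 was at 5.09 CPM in Stat4fl/flCD11cCre and 7.01 CPM in WT members, against 39.9 and 39.3 CPM in cells with Ly6c2 but neither Nos2 nor Arg1. The antibody tags, which the rule did not use, gave a median of 1396 CD11b tag UMIs per Stat4fl/flCD11cCre member and 1188.5 per WT member, 459 and 507 in those Ly6c2-positive cells, and 28 and 40 in cells with a Cd3e UMI. CD172a, a tag of myeloid cells, had a median of 538 in Stat4fl/flCD11cCre and 382.5 in WT members. XCR1, the tag of cross-presenting dendritic cells, had a median of 71 in Stat4fl/flCD11cCre and 42 in WT members. It was 76 and 42 in Arg1-positive cells, 36 and 20 in those Ly6c2-positive cells and 27 and 13 in cells with a Cd3e UMI. All tags together had medians of 2178 and 1784 in members, 906 and 840 in Ly6c2-positive and 226 and 130 in Cd3e-positive cells. Of all tag UMIs, CD11b made up 64.0% and 68.1%, 52.7% and 61.4%, and 45.7% and 60.1% in that order. XCR1 made up 3.56% and 2.85%, 4.41% and 3.16%, and 6.50% and 4.09%.

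Genes of other cells were found in the members too, and their part in the results was not tested. The summed level of 11 T cell genes was 108 CPM in Stat4fl/flCD11cCre and 98.5 CPM in WT members, most of it Il7r, and 2 and 1 of these genes were at 0. The 11 microglia genes summed to 431 CPM in Stat4fl/flCD11cCre and 633 CPM in WT members with P2ry12 at 0 by rule, 8 natural killer cell genes to 7.05 and 15.1 CPM with 5 and 1 at 0, and 7 B cell genes to 22.3 and 34.3 CPM with 3 and 0 at 0. Neutrophil genes were the largest, at 4671 CPM in Stat4fl/flCD11cCre and 3644 CPM in WT members for 10 genes, led by S100a8 and S100a9, which monocytes also express, with Ly6g at 0 by rule. Choroid plexus genes summed to 10.2 CPM in Stat4fl/flCD11cCre and 1126 CPM in WT members, nearly all of it Ttr. Cells with 10 or more UMIs of Camp, Ngp, Ltf, Ttr or Enpp2 numbered 0 in Stat4fl/flCD11cCre and 2 in WT members. The 2 libraries shared 42 barcodes among the kept cells.

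The closest cells were chosen as those with Arg1 but no Nos2 and the same exclusions, 592 in Stat4fl/flCD11cCre and 791 in WT. Members and these Arg1-positive cells of the same library come from 1 pool, so the comparison was made within libraries, with edgeR's quasi-likelihood test on 4 summed profiles and the library as a block. Of 10953 genes, 403 rose in Nos2 macrophages (3.68%) and 190 fell (1.73%) at an adjusted p under 0.05. These shares are the background for the list counts below. For counts at an unadjusted edgeR p under 0.05, the background is 1923 of the 10953 genes, higher and lower together. The 10953 genes include Nos2 and its companion genes, whose differences are shaped by the rule, so any call of theirs is no result. The direction was the same in both libraries for 591 of the called genes. A test blocked by library favours such genes, so this is no separate support. The T cell chemokines Cxcl9 and Cxcl10, Acod1 of itaconate synthesis, interferon-induced GTPases such as Gbp2 and Iigp1, 13 of 16 tested glycolysis genes and 7 of 17 antioxidant genes were higher in Nos2 macrophages. The mannose receptor Mrc1, the lipid carrier Apoe and the monocyte receptor Ccr2 were lower. The p-values rest on 2 libraries that also differ in genotype. Without the library as a block, 111 genes rose and 23 fell. DESeq2 called 180 higher and 50 lower. Where Arg1 was needed in the members too, 394 genes rose and 229 fell, of which 315 and 157 were among the calls given above.

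**Figure D1:**
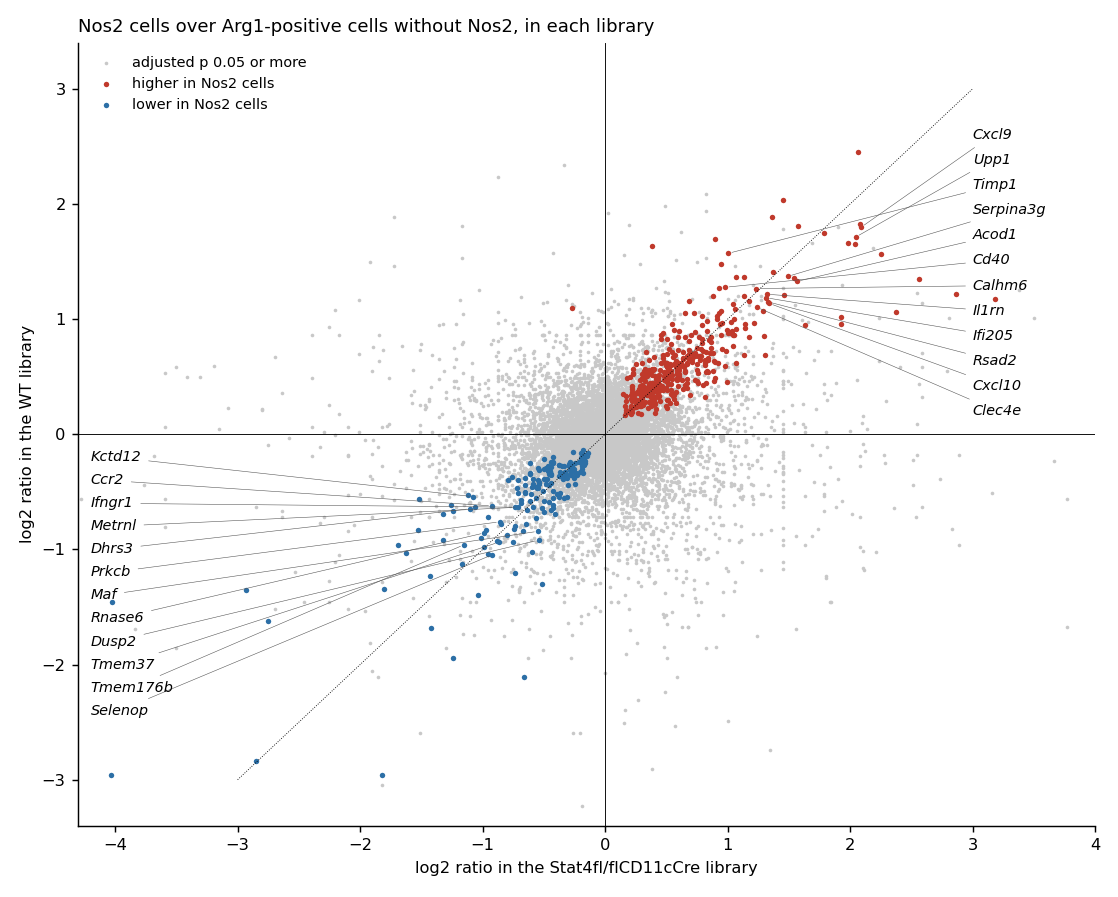
Each point is a gene, with the log2 ratio of Nos2 macrophages over Arg1-positive cells without Nos2 in the Stat4fl/flCD11cCre library on the x axis and in the WT library on the y axis. Red points rose and blue points fell at an adjusted p under 0.05, the dotted line is equality, 0.5 UMIs were added to each sum, rule genes are left out, and 24 genes (12 of them called) lie outside the axes. The 12 risers and 12 fallers named by rule needed the same direction in both libraries to be named. They lie near the line, with Cxcl9 at 2.09 on the x axis and 1.80 on the y axis.

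Cxcl9, the interferon-gamma-induced chemokine for CXCR3-bearing T cells, had the largest rise of the genes named by rule. It was at 1422 CPM in Stat4fl/flCD11cCre and 1596 CPM in WT Nos2 macrophages, against 334 CPM in Stat4fl/flCD11cCre and 459 CPM in WT Arg1-positive cells. Both libraries of Nos2 macrophages lay above both libraries of Arg1-positive cells, and the log2 fold change was 1.96 (SE 0.07, edgeR adjusted p = 2.58e-05). After thinning, 40.5% of Stat4fl/flCD11cCre and 48.8% of WT Nos2 macrophages held a Cxcl9 UMI, against 17.7% of Stat4fl/flCD11cCre and 23.1% of WT Arg1-positive cells; the unthinned shares were 51.7% and 59.5%, against 27.2% and 31.5%. Its neighbour Cxcl10, a second ligand of CXCR3, was at 617 CPM in Stat4fl/flCD11cCre and 741 CPM in WT Nos2 macrophages, against 244 CPM in Stat4fl/flCD11cCre and 337 CPM in WT Arg1-positive cells (log2 1.25, SE 0.06, edgeR adjusted p = 6.12e-05). Again the populations did not overlap. The Arg1-positive cells hold Arg1 by rule, which members need not. Cxcl10 was at 388 CPM in Stat4fl/flCD11cCre and 616 CPM in WT members with Arg1, and at 1413 and 1113 CPM in those without. Where the members needed Arg1 too, all 24 genes named by rule passed. The part of this unequal rule in the size of the rises was not tested.

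Upp1, uridine phosphorylase, was at 184 CPM in Stat4fl/flCD11cCre and 240 CPM in WT Nos2 macrophages, against 44.6 CPM in Stat4fl/flCD11cCre and 73.1 CPM in WT Arg1-positive cells (log2 1.87, SE 0.09, edgeR adjusted p = 5.89e-05). Acod1, which makes itaconate from an intermediate of the citric acid cycle, was at 499 CPM in Stat4fl/flCD11cCre and 650 CPM in WT Nos2 macrophages, against 169 CPM in Stat4fl/flCD11cCre and 259 CPM in WT Arg1-positive cells (log2 1.45, SE 0.07, edgeR adjusted p = 5.89e-05). For both genes the lower library of Nos2 macrophages lay above the higher library of Arg1-positive cells. Thinned to equal depth, Acod1 was found in 56.0% of Stat4fl/flCD11cCre and 60.1% of WT Nos2 macrophages, against 22.6% of Stat4fl/flCD11cCre and 32.5% of WT Arg1-positive cells; the unthinned shares were 81.3% and 80.9%, against 48.0% and 52.6%. Il1rn, the antagonist of the IL-1 receptor, was at 583 CPM in Stat4fl/flCD11cCre and 560 CPM in WT Nos2 macrophages, against 234 CPM in Stat4fl/flCD11cCre and 241 CPM in WT Arg1-positive cells (log2 1.28, SE 0.06). Its thinned share was 56.5% of Stat4fl/flCD11cCre and 56.7% of WT Nos2 macrophages, against 30.2% and 32.9% of Arg1-positive cells.

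The other risers named by rule were Serpina3g, a protease inhibitor (log2 1.44), Calhm6, a membrane protein also known as Fam26f (1.27), Ifi205, of the interferon-induced p200 family (1.26), Timp1, an inhibitor of matrix metalloproteinases (1.26), Rsad2, the antiviral enzyme viperin (1.25), Clec4e, the receptor Mincle for mycobacterial cord factor (1.18), and Cd40, the receptor of the T cell protein CD40L (1.16). Their edgeR adjusted p-values ran between 5.98e-05 for Calhm6 and Clec4e and 0.00232 for Timp1. Clec4e was at 492 CPM in Stat4fl/flCD11cCre and 474 CPM in WT Nos2 macrophages, against 209 CPM in Stat4fl/flCD11cCre and 221 CPM in WT Arg1-positive cells. Timp1 differed more between libraries, at 101 CPM in Stat4fl/flCD11cCre and 61.8 CPM in WT Nos2 macrophages, against 50.4 CPM in Stat4fl/flCD11cCre and 20.8 CPM in WT Arg1-positive cells, so the WT Nos2 macrophages stood only a little above the Stat4fl/flCD11cCre Arg1-positive cells. Timp1 did not pass without the library block (adjusted p = 0.238).

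The 250 bases before the RefSeq start of 4 of these risers are shown because their RNA rose together and interferon and NF-kappa B are known inducers of several of them; they were picked among the risers that hold matches. The sequences are from RefSeq, GRCm38.p6, 5' to 3' on the strand of the gene, with matches in capitals. The motifs searched on both strands were GGGNNNNNCC (kappa B), TTCNNNGAA (the gamma-activated site) and GAAANNGAAA (the interferon-stimulated response element).
Cxcl9 promoter, chr5:92328080-92328329, minus strand: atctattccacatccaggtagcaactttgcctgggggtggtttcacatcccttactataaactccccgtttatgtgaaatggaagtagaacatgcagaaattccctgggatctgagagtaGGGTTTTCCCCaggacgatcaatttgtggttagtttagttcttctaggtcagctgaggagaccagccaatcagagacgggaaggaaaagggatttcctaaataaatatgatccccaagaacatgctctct
Cxcl10 promoter, chr5:92348890-92349139, minus strand: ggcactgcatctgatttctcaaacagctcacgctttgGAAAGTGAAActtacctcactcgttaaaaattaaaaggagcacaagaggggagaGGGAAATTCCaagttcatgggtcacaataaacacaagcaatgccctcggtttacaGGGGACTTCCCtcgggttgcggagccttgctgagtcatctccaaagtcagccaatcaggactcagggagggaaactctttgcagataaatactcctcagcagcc
Serpina3g promoter, chr12:104235897-104236146, plus strand: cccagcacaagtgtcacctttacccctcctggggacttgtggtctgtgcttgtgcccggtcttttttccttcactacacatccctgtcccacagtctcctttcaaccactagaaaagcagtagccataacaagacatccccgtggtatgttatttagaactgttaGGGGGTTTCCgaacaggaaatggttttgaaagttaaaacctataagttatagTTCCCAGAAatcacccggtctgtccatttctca
Calhm6 promoter, chr10:34127973-34128222, minus strand: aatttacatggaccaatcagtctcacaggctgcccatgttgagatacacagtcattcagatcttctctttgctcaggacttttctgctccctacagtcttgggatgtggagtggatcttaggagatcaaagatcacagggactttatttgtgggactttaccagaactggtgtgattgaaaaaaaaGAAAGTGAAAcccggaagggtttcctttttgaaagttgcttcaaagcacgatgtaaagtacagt
Cxcl9 has a kappa B stretch 120 to 130 bases before the start, in which 3 matches on both strands overlap. Cxcl10 has the interferon-stimulated element at 204 to 213 bases before the start, a kappa B match at 150 to 159, and a stretch at 94 to 104 where 3 kappa B matches overlap. Serpina3g has a kappa B match at 76 to 85 and a gamma-activated site at 25 to 33, the same letters on both strands, and Calhm6 an interferon-stimulated element at 55 to 64. Among 32851 promoter windows of 250 bases, 45.8% hold a kappa B match, 7.02% a gamma-activated site and 2.98% an interferon-stimulated element, so the kappa B letters alone are common. RefSeq entries were found for 11 of the 12 risers, in 15 windows because Upp1 and Il1rn have several starts. Of these 11, 8 hold a kappa B match in at least 1 window, 1 a gamma-activated site and 4 an interferon-stimulated element, and 1, Clec4e, holds none of the 3 motifs. Matches are letters in these windows and say nothing of binding.

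Genes around nitric oxide moved unevenly. Ass1, argininosuccinate synthase, which with Asl returns citrulline to arginine, was at 486 CPM in Stat4fl/flCD11cCre and 560 CPM in WT Nos2 macrophages, against 302 CPM in Stat4fl/flCD11cCre and 336 CPM in WT Arg1-positive cells (log2 0.73, SE 0.05, edgeR adjusted p = 0.000413). Gch1, the first enzyme for the cofactor tetrahydrobiopterin, was at 123 CPM in Stat4fl/flCD11cCre and 113 CPM in WT Nos2 macrophages, against 78.6 CPM in Stat4fl/flCD11cCre and 75.6 CPM in WT Arg1-positive cells (log2 0.63, SE 0.08, edgeR adjusted p = 0.00383). Neither gene's levels overlapped between the populations. Ass1 was the 1 riser of 4 tested genes of arginine uptake and recycling, and Gch1 the 1 riser of 5 tested cofactor genes. The next steps did not pass: Asl had a log2 fold change of 0.03, Slc7a1, the other arginine transporter, of 0.16, Pts of -0.12, Spr of 0.15 and Qdpr of -0.16. Of 8 tested genes of arginases and polyamines, edgeR called 0 and DESeq2 0. An unadjusted edgeR p under 0.05 was found for 3 of them, 1 higher, and for 1923 of all 10953 genes. Arg2 was at 0.21 and Odc1, ornithine decarboxylase, at -0.41 (edgeR adjusted p = 0.1).

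**Figure D2:**
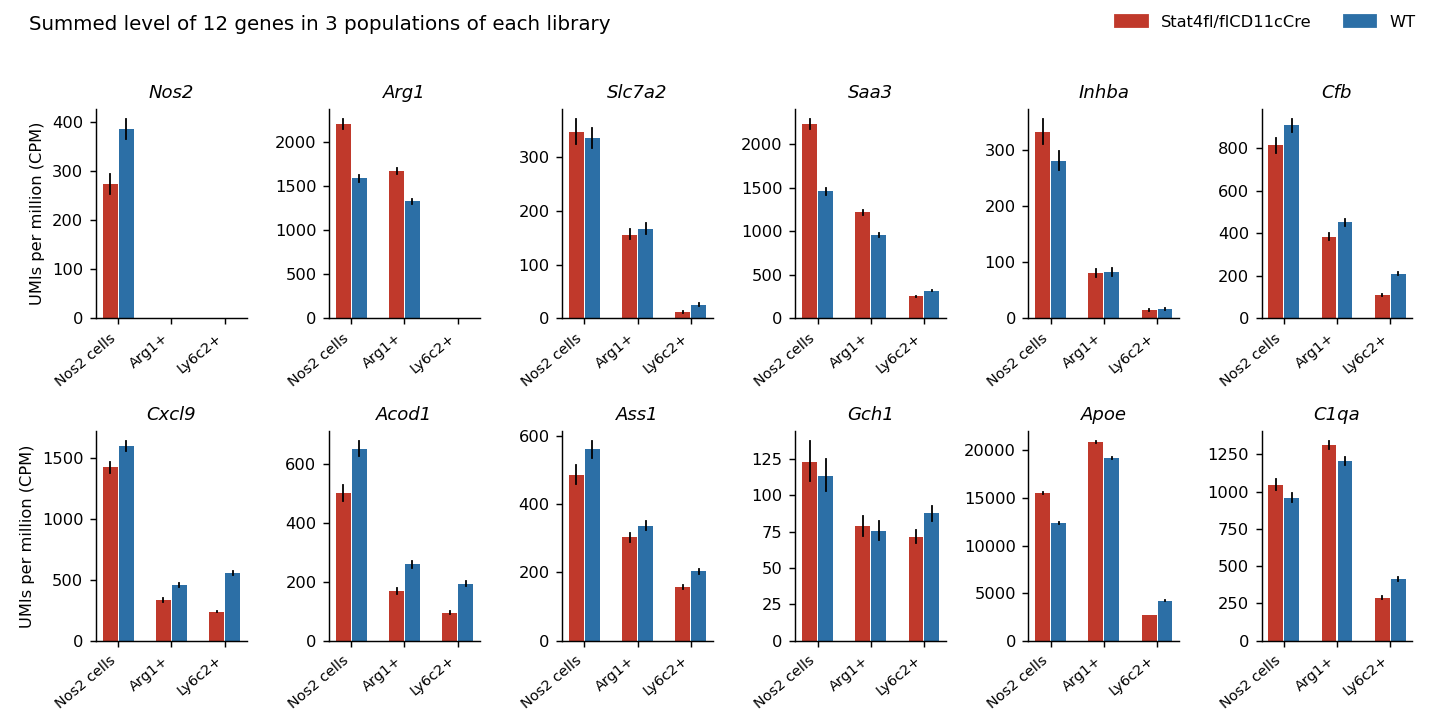
Summed level in CPM (y axes, starting at 0) of the 6 rule genes and 6 others in Nos2 macrophages, Arg1-positive cells without Nos2 and Ly6c2-positive cells with neither, with Stat4fl/flCD11cCre in red and WT in blue and 95% Poisson intervals as bars. Nos2 is 0 in the last 2 populations and Arg1 in the last by rule; Inhba is at 333 CPM in Stat4fl/flCD11cCre and 281 CPM in WT Nos2 macrophages, against 80.9 CPM in Stat4fl/flCD11cCre and 82.1 CPM in WT Arg1-positive cells.

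The Ly6c2-positive cells without Nos2 and Arg1, given for scale only, were below both other populations, in both libraries, in Slc7a2, Saa3, Inhba, Cfb, Ass1, Apoe and C1qa. Slc7a2 was at 12.5 CPM in Stat4fl/flCD11cCre and 25.6 CPM in WT of these cells, Inhba at 15.2 and 16.8 CPM, and Apoe, the lipid carrier, at 2722 and 4213 CPM. Cxcl9 was at 239 CPM in Stat4fl/flCD11cCre and 554 CPM in WT of these cells, so that their WT value lay above WT Arg1-positive cells. Cxcl10 was at 364 CPM in Stat4fl/flCD11cCre and 827 CPM in WT, above WT Nos2 macrophages.

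Of 21 tested transcription factors that act on Nos2, 8 rose and none fell by edgeR. The median log2 was 0.18 over the list against -0.01 over all genes. At an unadjusted edgeR p under 0.05, 10 were higher and 4 lower, where 1923 of all 10953 genes passed in either direction. Those that rose included Batf2, which works with Irf1, at 1.18, Nfkb2 at 0.44, Irf1 at 0.39, Bhlhe40 at 0.36, Hif1a at 0.32, Irf8 at 0.26 and Cebpb at 0.24. Irf1 was at 226 CPM in Stat4fl/flCD11cCre and 288 CPM in WT Nos2 macrophages, against 167 CPM in Stat4fl/flCD11cCre and 229 CPM in WT Arg1-positive cells. Here Stat4fl/flCD11cCre Nos2 macrophages lay close to WT Arg1-positive cells, and without the library block Irf1 (adjusted p = 0.37) did not pass. By DESeq2 4 of the 21 rose and 0 fell. Among 14 tested receptors for Nos2 inducers, Tlr2, which senses bacterial lipoproteins (0.48), Csf2rb (0.46), the GM-CSF receptor chain, and Cd14 (0.29), the endotoxin co-receptor, rose. Ifngr1, the interferon-gamma receptor chain, fell: it was at 152 CPM in Stat4fl/flCD11cCre and 143 CPM in WT Nos2 macrophages, against 248 CPM in Stat4fl/flCD11cCre and 222 CPM in WT Arg1-positive cells (log2 -0.66, SE 0.06, edgeR adjusted p = 0.00108).

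Of 25 tested interferon-gamma response genes 18 rose and 1, Fcgr1, fell, with a list median of 0.63. Gbp2, a guanylate-binding protein of cell-autonomous immunity, was at 460 CPM in Stat4fl/flCD11cCre and 560 CPM in WT Nos2 macrophages, against 231 CPM in Stat4fl/flCD11cCre and 299 CPM in WT Arg1-positive cells (log2 0.96, SE 0.06, edgeR adjusted p = 0.000115). Iigp1, an immunity-related GTPase, had a log2 fold change of 1.08, Gbp5 0.96, Socs1, a brake on interferon signalling, 0.95, and Cd274, the checkpoint ligand PD-L1, 0.83. Of 20 tested type I interferon genes 11 rose, among them Ifit2 (0.94) and Isg15 (0.80), and none fell, with a list median of 0.50. That median was 0.24 where the members needed Arg1 too. By DESeq2 13 of the 25 and 5 of the 20 rose. MHC class I presentation had 9 risers of 17 (median 0.24), and MHC class II presentation 1 of 12, H2-Ab1 at 0.18, with Cd74 at 0.01 and H2-Aa at 0.02.

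**Figure D3:**
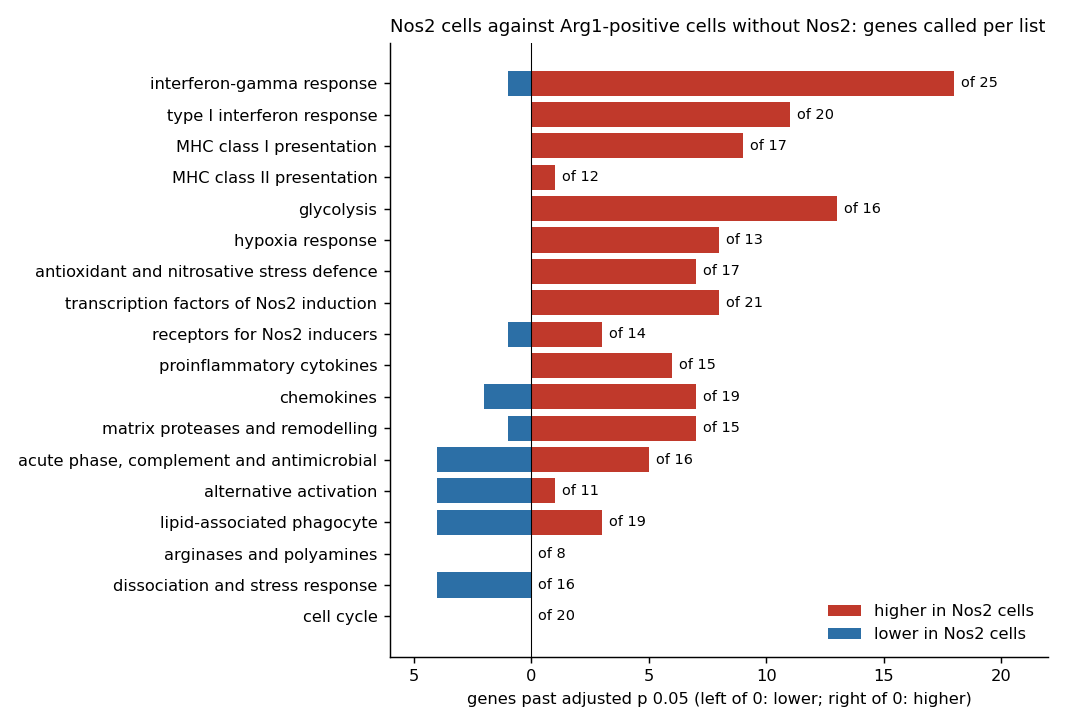
Genes past an adjusted p of 0.05 in 18 gene lists, with those higher in Nos2 macrophages than in Arg1-positive cells as red bars to the right and those lower as blue bars to the left; the number after each bar is the number of genes tested. Interferon-gamma response (18 of 25) and glycolysis (13 of 16) have the longest bars to the right. Over all tested genes 3.68% were higher and 1.73% lower.

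Of 16 tested glycolysis genes 13 rose and none fell, with a median log2 of 0.39. Ldha, lactate dehydrogenase, was at 920 CPM in Stat4fl/flCD11cCre and 926 CPM in WT Nos2 macrophages, against 655 CPM in Stat4fl/flCD11cCre and 656 CPM in WT Arg1-positive cells (log2 0.51, SE 0.05, edgeR adjusted p = 0.00126). The glucose transporter Slc2a1 had 0.59 and Hk2, hexokinase, 0.57. Of 13 tested hypoxia genes 8 rose and none fell (median 0.59), led by Ddit4, an inhibitor of mTOR, at 0.92 and Egln3, an oxygen-sensing hydroxylase, at 0.83. By DESeq2 12 glycolysis and 6 hypoxia genes rose. Of 17 antioxidant genes 7 rose and none fell. Sod2, the mitochondrial superoxide dismutase, was at 1137 CPM in Stat4fl/flCD11cCre and 985 CPM in WT Nos2 macrophages, against 517 CPM in Stat4fl/flCD11cCre and 507 CPM in WT Arg1-positive cells (log2 1.06, SE 0.06, edgeR adjusted p = 8.72e-05). Slc7a11, the cystine transporter for glutathione synthesis, had 1.04, Txnrd1 0.55 and Hmox1 0.49. Among 11 genes of itaconate and mitochondrial metabolism, Acod1 alone rose.

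Of 19 tested chemokines 7 rose and 2 fell, where 3.68% of all tested genes rose and 1.73% fell. Beside Cxcl9 and Cxcl10, Ccl5 was at 2071 CPM in Stat4fl/flCD11cCre and 2273 CPM in WT Nos2 macrophages, against 1076 CPM in Stat4fl/flCD11cCre and 1250 CPM in WT Arg1-positive cells (log2 0.92, SE 0.04, edgeR adjusted p = 5.89e-05). Cxcl3, which draws neutrophils, had 1.85, Ccl7, a ligand of CCR2, 1.34 and Cxcl16 0.49; Ccl24 (-1.53) and Pf4 (-0.94) fell, and Ccl2 did not pass (0.25, edgeR adjusted p = 0.309). By DESeq2 4 chemokines rose and 0 fell. Ccl24 had -1.69 in the Stat4fl/flCD11cCre library and -0.96 in the WT library. Of 15 tested inflammatory cytokines 6 rose: Il12a, the p35 subunit of IL-12, at 2.11, Il23a, the p19 subunit of IL-23, at 1.41, Csf1 at 1.27, Il27 at 1.18, Il1a at 1.01 and Tnf at 0.71. Il12a was at 24.3 CPM in Stat4fl/flCD11cCre and 9.71 CPM in WT Nos2 macrophages, against 3.30 CPM in Stat4fl/flCD11cCre and 4.15 CPM in WT Arg1-positive cells, and Il23a at 7.05 and 12.7 CPM, against 2.73 and 4.74 CPM. The log2 ratio of Il12a was 2.86 in the Stat4fl/flCD11cCre library alone and 1.22 in the WT library. Both genes were low, and Il12b, the p40 subunit that IL-12 and IL-23 share, had 1 UMI in Stat4fl/flCD11cCre and 3 in WT members. Tnf, at 157 CPM in Stat4fl/flCD11cCre and 261 CPM in WT Nos2 macrophages, against 89.4 CPM in Stat4fl/flCD11cCre and 172 CPM in WT Arg1-positive cells, overlapped between the populations and did not pass without the block (adjusted p = 0.385). Il6 had a log2 fold change of -0.26 (edgeR adjusted p = 0.386). Il1b was at 2243 CPM in Stat4fl/flCD11cCre and 1779 CPM in WT Nos2 macrophages, against 1799 CPM in Stat4fl/flCD11cCre and 1663 CPM in WT Arg1-positive cells, and did not pass (0.22, edgeR adjusted p = 0.0718).

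The genes that fell included some marks of resident, lipid-handling and alternatively activated macrophages. Of 5 tested border-associated macrophage genes 3 fell (Mrc1, Ccl24 and Pf4), and of 10 tested microglia genes 1, Cx3cr1. None rose, and DESeq2 called 0 in both lists. F13a1, the highest border-associated gene, was at 356 CPM in both libraries of Nos2 macrophages. It was at 341 CPM in Stat4fl/flCD11cCre and 354 CPM in WT Arg1-positive cells. Mrc1, the mannose receptor, was at 16.1 CPM in Stat4fl/flCD11cCre and 14.3 CPM in WT Nos2 macrophages, against 56.7 CPM in Stat4fl/flCD11cCre and 36.5 CPM in WT Arg1-positive cells (log2 -1.56, SE 0.15, edgeR adjusted p = 0.00154). Mgl2, the galactose lectin CD301b, was at 1.17 CPM in Stat4fl/flCD11cCre and 0.81 CPM in WT Nos2 macrophages, against 22.4 CPM in Stat4fl/flCD11cCre and 7.27 CPM in WT Arg1-positive cells (log2 -3.75, with -4.03 in the Stat4fl/flCD11cCre and -2.96 in the WT library alone). Of 11 tested genes of alternative activation 4 fell (Mgl2, Mrc1, Ccl24 and Chil3) and 1 rose, Pdcd1lg2, the checkpoint ligand PD-L2; DESeq2 called 0 in either direction. Of 19 lipid-associated genes Apoe, Gpnmb, Trem2 and Ctsd fell, and Olr1, Cd9 and Lgals3 rose. Apoe was at 15518 CPM in Stat4fl/flCD11cCre and 12358 CPM in WT Nos2 macrophages, against 20885 CPM in Stat4fl/flCD11cCre and 19216 CPM in WT Arg1-positive cells (log2 -0.52, SE 0.04, edgeR adjusted p = 0.000854). C1qa, C1qb and C1qc, the chains of complement C1q, fell by 0.31, 0.34 and 0.35 on the log2 scale, while C3, at 700 CPM in Stat4fl/flCD11cCre and 534 CPM in WT Nos2 macrophages, against 461 CPM in Stat4fl/flCD11cCre and 375 CPM in WT Arg1-positive cells, rose (log2 0.57). The Arg1-positive cells all hold Arg1 by rule, while 26.1% of Stat4fl/flCD11cCre and 30.7% of WT members lacked it. C1qa was at 1313 CPM in Stat4fl/flCD11cCre and 1205 CPM in WT Arg1-positive cells. It was at 1174 and 1045 CPM in members with Arg1 and at 611 and 709 CPM in those without. Apoe was at 17823 and 14193 CPM with Arg1 and at 7514 and 6868 CPM without. The part of this unequal rule in the falls, as in the rises, was not tested. Ccr2, the receptor by which monocytes leave the marrow and enter inflamed tissue, was at 211 CPM in Stat4fl/flCD11cCre and 249 CPM in WT Nos2 macrophages, against 400 CPM in Stat4fl/flCD11cCre and 384 CPM in WT Arg1-positive cells (log2 -0.75, SE 0.08, edgeR adjusted p = 0.00163). Ly6c2 rose (0.45), so these monocyte genes moved apart.

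The remaining fallers named by rule were Tmem176b, a membrane protein (-1.04), Selenop, a selenium carrier (-0.98), Rnase6, an antimicrobial ribonuclease (-0.90), Tmem37 (-0.90), Dhrs3, a retinal reductase (-0.85), Prkcb, a protein kinase C (-0.79), Kctd12 (-0.77), Dusp2, a phosphatase of MAP kinases (-0.75), Maf, a transcription factor of resident macrophages (-0.69), and Metrnl, a secreted factor (-0.67). Selenop was at 91.6 CPM in Stat4fl/flCD11cCre and 85.5 CPM in WT Nos2 macrophages, against 174 CPM in Stat4fl/flCD11cCre and 177 CPM in WT Arg1-positive cells. Without the block Maf (adjusted p = 0.0526), Metrnl (0.0606) and Dusp2 (0.0601) did not pass, and after thinning Dusp2 (0.426) and Rnase6 (0.119) did not. By DESeq2 Dusp2 did not pass (adjusted p = 0.0746) and Rnase6 was given no adjusted p. Of 16 early-response and stress genes 4 fell, Nr4a1 (-0.57), Dusp1 (-0.45), Fosb (-0.43) and Egr1 (-0.42), and none rose.

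Markers of other cells moved with this comparison too. Of 9 tested neutrophil genes 5 passed as higher by edgeR (Ltf, Camp, Retnlg, Ngp and Mmp8), while DESeq2 called 0, with a list median of 0.70 that was -0.14 where the members needed Arg1. Camp, a granule peptide, was at 3.92 CPM in Stat4fl/flCD11cCre and 226 CPM in WT Nos2 macrophages, against 4.88 CPM in Stat4fl/flCD11cCre and 106 CPM in WT Arg1-positive cells, so that it was lower in Nos2 macrophages of the Stat4fl/flCD11cCre library. In WT members 98.8% of the Camp and 99.3% of the Ngp UMIs lay in 1 cell. S100a8 was at 2379 CPM in Stat4fl/flCD11cCre and 1461 CPM in WT Nos2 macrophages, against 395 CPM in Stat4fl/flCD11cCre and 1165 CPM in WT Arg1-positive cells, and did not pass (edgeR adjusted p = 0.121). Gzma of natural killer cells and Cd79a of B cells fell, and Il7r rose. In a setting chosen after the data were seen, cells rich in granule or choroid plexus genes were removed, which were 2 members and 5 Arg1-positive cells in WT and 0 in Stat4fl/flCD11cCre. Camp (log2 0.19, edgeR adjusted p = 0.899), Ngp (-0.00394, 0.997) and Ltf (0.51, 0.676) then did not pass, while Retnlg and Mmp8 did and S100a8 passed as well (1.65, edgeR adjusted p = 5.23e-05). Over all genes 586 then rose and 368 fell, and these held 399 of the 403 higher and all 190 lower calls and all 24 genes named by rule. The part of such cells in the other results was not tested. Of 20 cell cycle genes edgeR called 0 and DESeq2 0. An unadjusted edgeR p under 0.05 was found for 3 of them, all higher, and for 1923 of all 10953 genes.

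Nos2 macrophages differed among themselves. Because Nos2 and Arg1 are genes of the rule, these splits are descriptions. In members with 1, with 2 to 4 and with 5 or more Nos2 UMIs, in that order, Cxcl9 was at 1099, 1156 and 2180 CPM in Stat4fl/flCD11cCre and at 1124, 1687 and 2440 CPM in WT members. Cxcl10 was at 459, 631 and 814 CPM in Stat4fl/flCD11cCre and at 526, 634 and 1366 CPM in WT. Both chemokines were highest in the cells richest in Nos2 in both libraries. Sod2 was at 917, 1136 and 1434 CPM in Stat4fl/flCD11cCre and at 761, 1057 and 1340 CPM in WT, and Inhba at 167, 427 and 446 CPM in Stat4fl/flCD11cCre and at 152, 248 and 608 CPM in WT. Ccr2 ran the other way, at 272, 201 and 141 CPM in Stat4fl/flCD11cCre and at 313, 216 and 170 CPM in WT, while Apoe had no shared order, at 15042, 15222 and 16518 CPM in Stat4fl/flCD11cCre and 14636, 10306 and 10924 CPM in WT. Median depth was a little higher in the richer bins, with 10380.5, 11769 and 12183.5 UMIs in Stat4fl/flCD11cCre and 8201, 8522 and 8635 in WT, and its part was not tested.

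**Figure D4:**
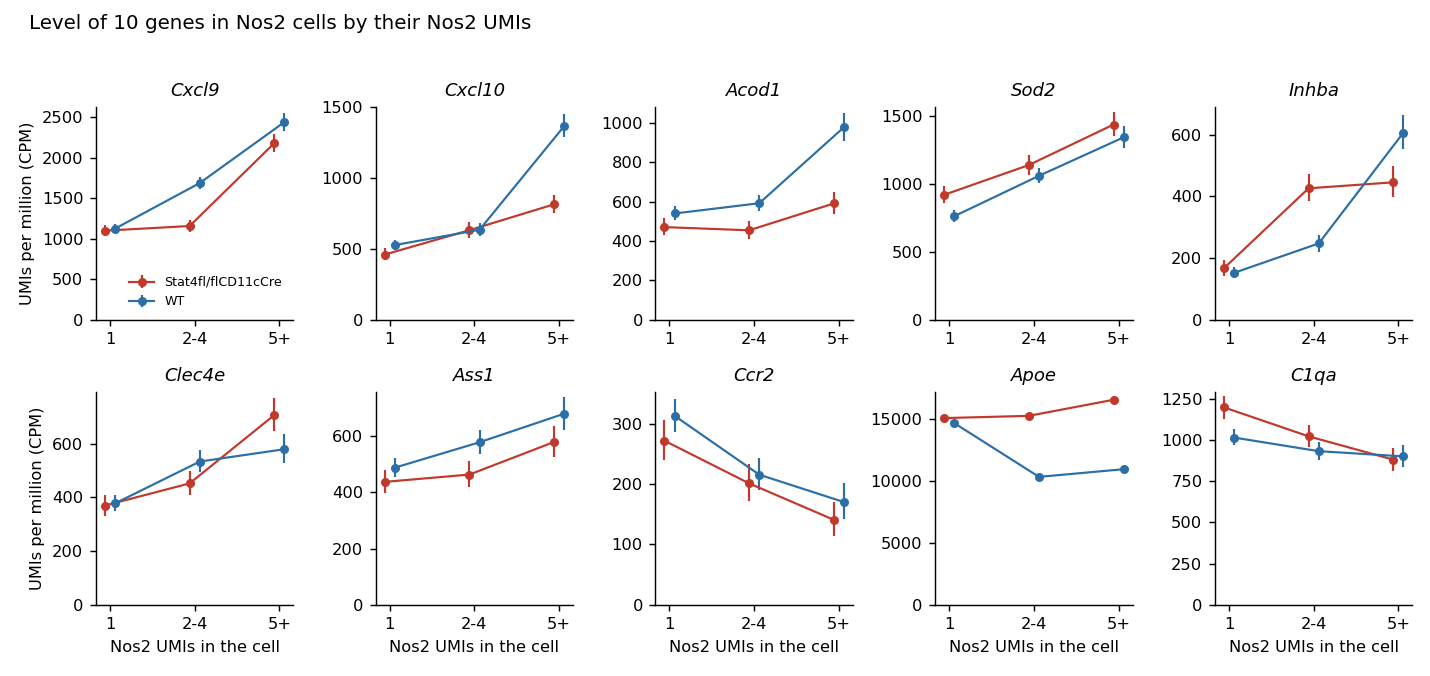
Level in CPM (y axes, starting at 0) of 10 genes in members with 1, 2 to 4 and 5 or more Nos2 UMIs, with Stat4fl/flCD11cCre in red and WT in blue and 95% Poisson intervals as bars. Cxcl9, Cxcl10, Sod2 and Ass1 are highest at 5 or more Nos2 UMIs in both libraries and Ccr2 is lowest there.

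Members with and without an Arg1 UMI had similar Nos2 levels and differed in other genes. The 53 Stat4fl/flCD11cCre and 122 WT members without Arg1 had 270 and 361 CPM of Nos2, and the 150 Stat4fl/flCD11cCre and 276 WT members with Arg1 had 274 and 394 CPM. Cxcl9 was at 2256 CPM in Stat4fl/flCD11cCre and 2671 CPM in WT members without Arg1, against 1182 CPM in Stat4fl/flCD11cCre and 1237 CPM in WT members with it. Cxcl10 was at 1413 and 1113 CPM without Arg1, against 388 and 616 CPM with it. The chemokines were thus higher without Arg1 in both libraries. Spp1, osteopontin, was at 54.3 CPM in Stat4fl/flCD11cCre and 100 CPM in WT members without Arg1, against 612 CPM in Stat4fl/flCD11cCre and 633 CPM in WT members with it. Apoe was at 7514 and 6868 CPM without Arg1, against 17823 and 14193 CPM with it, and Fn1, fibronectin, at 517 and 476 CPM, against 1423 and 1119 CPM. C1qa was at 611 and 709 CPM without Arg1, against 1174 and 1045 CPM with it. These genes were higher with Arg1 in both libraries. Cfb, a companion gene of the rule, ran the other way, at 1121 and 963 CPM without Arg1, against 726 and 888 CPM with it. Mmp14, a membrane protease, differed little, at 271 and 225 CPM without Arg1, against 285 and 248 CPM with it, and its intervals overlapped. Members without Arg1 were also shallower, with a median of 9993 UMIs in Stat4fl/flCD11cCre and 6867.5 in WT, against 11764.5 and 9095.5.

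Across single cells of both populations together, thinned to 2500 UMIs (776 in Stat4fl/flCD11cCre and 1128 in WT), the genes whose UMIs ran most like those of Nos2 among 3008 genes were Acod1 (Spearman 0.29 in both), Upp1 (0.28 in Stat4fl/flCD11cCre and 0.25 in WT), Sod2 (0.23 and 0.27) and Il1rn (0.23 and 0.25). Lyz2 was the most opposed, at -0.15 in Stat4fl/flCD11cCre and -0.21 in WT. The counts are sparse, the values weak and the cells share 2 libraries, so they only rank genes. Arg1-positive cells have 0 Nos2 UMIs by rule, so the ranking largely restates the comparison of the populations and is no support for it.

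The genotypes have 1 library each, so differences between them have no replicate check and carry no test. Nos2 macrophages made up 1.65% (exact interval 1.43 to 1.89) of Stat4fl/flCD11cCre cells and 2.99% (2.71 to 3.30) of WT cells, a ratio of 0.551 (0.466 to 0.652). The share was lower in Stat4fl/flCD11cCre under each total tried, but the size depended on it. Among cells without P2ry12 the shares were 3.96% in Stat4fl/flCD11cCre and 5.51% in WT (ratio 0.720), among Arg1- or Nos2-positive cells 24.7% and 32.1% (ratio 0.768), and with the rule applied after thinning 1.02% and 2.41% (ratio 0.425). Arg1-positive cells without Nos2 made up 4.81% of Stat4fl/flCD11cCre and 5.95% of WT cells (ratio 0.809). The sort for MHC class II and CD11c and the number of microglia set these totals, and genotype and library cannot be told apart. The share of T cells with a Nos2 UMI was also lower in Stat4fl/flCD11cCre, as given above, and its part in the ratio was not tested.

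Stat4, the floxed gene, was low in these cells. Members held 3 Stat4 UMIs in 3 cells in Stat4fl/flCD11cCre and 20 UMIs in 13 cells in WT, which is 1.17 CPM (0.242 to 3.43) and 5.39 CPM (3.30 to 8.33), a ratio of 0.218 (0.0414 to 0.734). Arg1-positive cells had 9.18 CPM in Stat4fl/flCD11cCre and 16.9 CPM in WT (ratio 0.543, 0.393 to 0.744), and cells with a Cd3e UMI had 186 CPM in Stat4fl/flCD11cCre and 170 CPM in WT (ratio 1.09). Tags at the 3' end may lie outside the deleted exons, so the level does not check the deletion. Stat4 also fell in Nos2 macrophages against Arg1-positive cells (log2 -1.94, edgeR adjusted p = 0.0145), a call lost without the block (adjusted p = 0.156) and after thinning (0.504); its log2 ratio was -2.76 in the Stat4fl/flCD11cCre library and -1.62 in the WT library alone. Of the receptors above STAT4, Il12rb1 was at 2.74 CPM in Stat4fl/flCD11cCre and 3.78 CPM in WT members and Il23r at 0.39 and 0.27 CPM. Jak2, the kinase on both receptors, was at 178 CPM in Stat4fl/flCD11cCre and 185 CPM in WT Nos2 macrophages, against 105 CPM in Stat4fl/flCD11cCre and 115 CPM in WT Arg1-positive cells (log2 0.73).

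Of the rule genes, Nos2 was 0.50 lower in Stat4fl/flCD11cCre members on the log2 scale (-0.50, -0.63 to -0.37). The rule asks each member for 1 Nos2 UMI, which is a higher CPM in a shallower cell. WT members were shallower, with a median of 8319.5 UMIs against 11412 in Stat4fl/flCD11cCre. Members with 1 Nos2 UMI stood at 84.4 CPM in Stat4fl/flCD11cCre and 110 CPM in WT. The part of depth and rule in the Nos2 ratio was not tested. Arg1 was at 2206 CPM in Stat4fl/flCD11cCre and 1588 CPM in WT members (log2 0.47) and Saa3 at 2228 and 1458 CPM (0.61), while Inhba differed by 0.25, Slc7a2 by 0.05 and Cfb by -0.16. In Arg1-positive cells the ratios were 0.33 for Arg1, 0.34 for Saa3, -0.02 for Inhba, -0.09 for Slc7a2 and -0.23 for Cfb. Arg1 and Saa3 were therefore higher in Stat4fl/flCD11cCre in both populations.

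A gene was called between genotypes where it had 50 or more UMIs and differed by 1.5-fold or more, a size rule with no test. Of 7882 such genes in Nos2 macrophages 229 were higher in Stat4fl/flCD11cCre (2.91%) and 385 lower (4.88%), and of 9666 in Arg1-positive cells 154 were higher (1.59%) and 445 lower (4.6%). The median log2 ratio over all genes was -0.03 in both populations. Interferon-gamma response genes were mostly lower in Stat4fl/flCD11cCre Nos2 macrophages: 5 of 25 were called lower and none higher, 23 lay below 0 and the list median was -0.34. In Arg1-positive cells 5 of 25 were called lower and the median was -0.39. Iigp1 was at 138 CPM in Stat4fl/flCD11cCre and 226 CPM in WT members (log2 -0.71, -0.89 to -0.52), Gbp5 at 150 and 239 CPM (-0.67) and Gbp4 at 49.3 and 83.9 CPM (-0.77). Tnf was at 157 CPM in Stat4fl/flCD11cCre and 261 CPM in WT members (-0.73, -0.90 to -0.56) and had -0.94 in Arg1-positive cells. Genes of nitric oxide supply hardly differed, with Ass1 at -0.20 (-0.31 to -0.10) and Gch1 at 0.12 (-0.10 to 0.33). Acod1 had -0.38, Cxcl9 -0.17, Il1b 0.33 and Il12a 1.32 on 62 UMIs in Stat4fl/flCD11cCre and 36 in WT.

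Plcb4, a phospholipase C, had the highest named ratio, at 104 CPM in Stat4fl/flCD11cCre and 11.3 CPM in WT members (log2 3.20, 2.73 to 3.71), and 75.2 and 5.34 CPM in Arg1-positive cells (3.82). The other named genes higher in Stat4fl/flCD11cCre included several immediate-early genes: Fos at 1503 CPM in Stat4fl/flCD11cCre and 812 CPM in WT members (0.89, 0.82 to 0.96), Nr4a3 (1.07), Nr4a2 (0.86), Fosb (0.76) and Rgs1 (0.77). All 5 were also higher in Stat4fl/flCD11cCre Arg1-positive cells, by between 0.46 for Fos and 1.05 for Rgs1. The whole list of 16 early-response and stress genes had 2 called higher, 2 called lower and a median of 0.08 in members, and Jun was at 337 CPM in Stat4fl/flCD11cCre and 505 CPM in WT members (-0.58), against 362 CPM in Stat4fl/flCD11cCre and 530 CPM in WT Arg1-positive cells. Eprs, a tRNA synthetase, had 0.97, Errfi1, an inhibitor of EGF receptor signalling, 0.88, F7, coagulation factor VII, 0.80 and Vegfa, the vascular growth factor, 0.65. Prtn3, a granule protease, was at 60.3 CPM in Stat4fl/flCD11cCre and 31.6 CPM in WT members (0.93), against a ratio of -0.34 in Arg1-positive cells, and S100a8 had 0.70, against -1.56. A single Stat4fl/flCD11cCre cell held 29.2% of the Prtn3 and a single one 30.1% of the S100a8 UMIs, and single WT cells 33.3% and 38.8%.

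**Figure D5:**
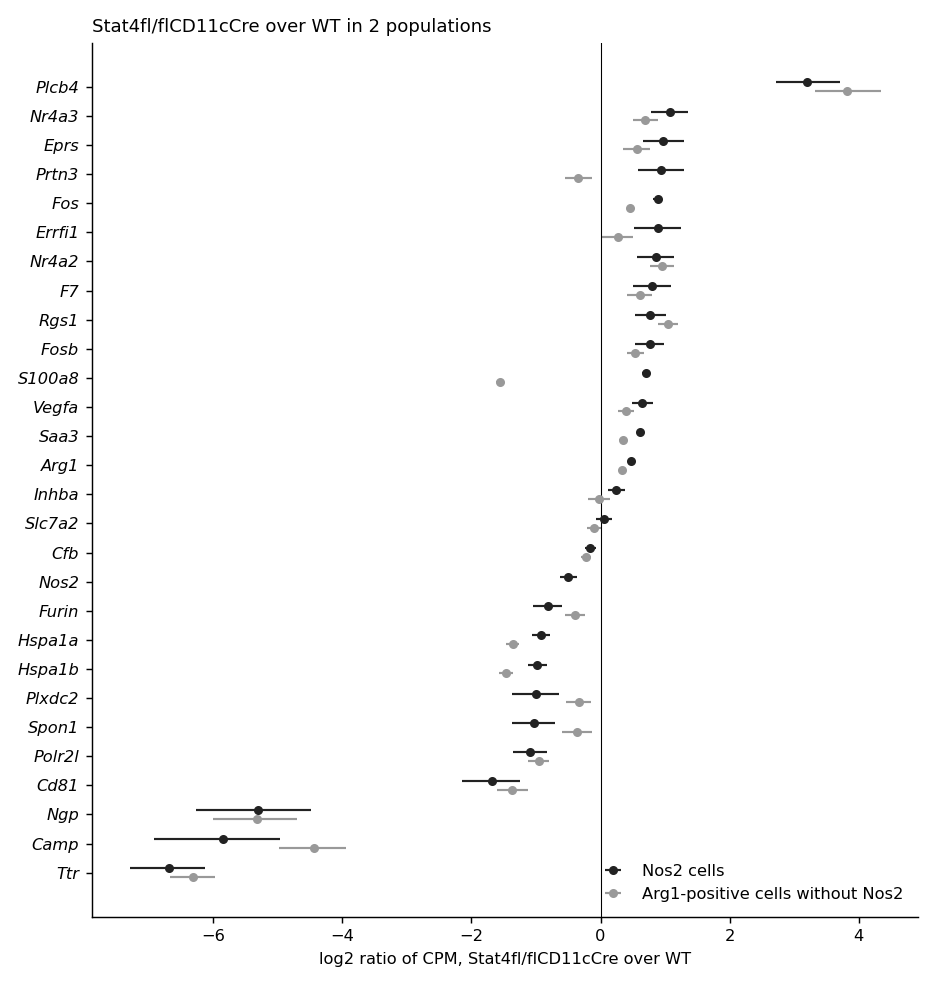
Log2 ratio of Stat4fl/flCD11cCre over WT (x axis) of rule genes and genes named by rule, in Nos2 macrophages (black) and Arg1-positive cells without Nos2 (grey), with 95% intervals for counting error. Plcb4 is highest in both at 3.20 and 3.82, and S100a8 and Prtn3 have opposite signs in the 2 populations. So do Inhba (0.25 and -0.02) and Slc7a2 (0.05 and -0.09), whose intervals in Arg1-positive cells hold 0. Ttr, Camp and Ngp at the bottom each rest on 1 WT member cell for over 98% of their WT UMIs.

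Named genes lower in Stat4fl/flCD11cCre members included Cd81, a tetraspanin, at 20.8 CPM in Stat4fl/flCD11cCre and 66.6 CPM in WT (log2 -1.68, -2.14 to -1.25), with -1.37 in Arg1-positive cells. The heat shock genes Hspa1b (-0.98) and Hspa1a (-0.92) were lower, as in Arg1-positive cells (-1.46 and -1.36), and nearly identical copies may share reads. Polr2l, an RNA polymerase subunit (-1.09), was lower by a like amount in Arg1-positive cells (-0.96). Spon1, a matrix protein (-1.03), and Furin, a proprotein convertase (-0.82), had -0.37 and -0.40 there. Plxdc2, a membrane protein, was at 34.5 CPM in Stat4fl/flCD11cCre and 69.1 CPM in WT members, against 58.1 CPM in Stat4fl/flCD11cCre and 73.5 CPM in WT Arg1-positive cells. Ttr, transthyretin of the choroid plexus, had 26 UMIs in Stat4fl/flCD11cCre and 3881 in WT members (-6.68), but 98.3% of the WT UMIs lay in 1 cell, and without the highest cell of each library the ratio was -0.95. Enpp2, also of the choroid plexus, had 0 UMIs in Stat4fl/flCD11cCre and 237 in WT members, at least 54.4-fold lower against a floor of 3 counts per library, with 98.3% in 1 cell. The granule genes Camp and Ngp had 98.8% and 99.3% of their WT UMIs in 1 cell, and their ratios of -5.85 and -5.30 became 0.38 and 1.38 without the highest cells. Genes of cell division had a list median of 0.59 in members, with 6 of 12 higher in Stat4fl/flCD11cCre, and of -0.76 in Arg1-positive cells, with 9 of 15 lower. Top2a, the topoisomerase of dividing cells, was at 27.4 CPM in Stat4fl/flCD11cCre and 13.5 CPM in WT members (1.02), against 5.31 CPM in Stat4fl/flCD11cCre and 21.2 CPM in WT Arg1-positive cells (-2.00). These counts were small, at 70 Top2a UMIs in Stat4fl/flCD11cCre and 50 in WT members, and the difference between the populations was not tested.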

How the data were processed

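Counts of UMIs per gene and barcode were used as the authors deposited them; per the submitters' processing notes they were made with Cell Ranger 7.0.0 on mm10. How intronic reads and doublets were treated is not given in the sources used here. A cell filter needed 500 genes, 1000 UMIs and a mitochondrial share under 10%; the libraries held 120221740 gene UMIs over 12534 barcodes in Stat4fl/flCD11cCre and 122975017 over 13820 in WT. UMIs were summed per population and library and scaled to CPM. Nos2 macrophages were set against Arg1-positive cells with edgeR 4.0.16 in R 4.3.3 (TMM, filterByExpr, library as block, Benjamini-Hochberg over 10953 genes). The block comes from the design, since both populations of a library come from 1 pool. In simulated data on those 10953 genes, the share of changed genes called was 11.1% at 1.5-fold, 58.2% at 2-fold and 81.2% at 4-fold, with 0 false calls. The genotype ratio and its conditional binomial interval (scipy 1.17.1) called 96.0% of 199 changed genes among 7736 simulated ones and 2.75% of unchanged ones. The edgeR simulation gave all genes the same small dispersion, and the genotype simulation drew Poisson counts with changes of 2-fold or 4-fold. Neither held genes whose UMIs lie mostly in a single cell, so false calls may be more frequent in the real data.

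Named genes are the 12 with the largest rise and the 12 with the largest fall past the threshold, in the same direction in both libraries and with 50 or more CPM in the higher population, and the 12 highest and 12 lowest genotype ratios (by the bound of the interval closest to a ratio of 1, with at least 100 UMIs). Rule, mitochondrial, ribosomal protein, immunoglobulin and predicted genes were left out, and of the sex-linked genes those of the Y chromosome and of X inactivation; Timp1, on chromosome X, stayed in. Other genes come from lists. A few genes so chosen are not reported in the text. The members, lists and named families were chosen with earlier results of these data known. Alternatives used DESeq2 1.42.0, other scalings, thinning, Scrublet in scanpy 1.11.5 and other cell rules.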

Additional observations from a re-analysis of the deposited data

Results flagged for a closer look

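S100a8, a calcium-binding protein of neutrophils and monocytes, had a log2 ratio of Stat4fl/flCD11cCre over WT of 0.70 in Nos2 macrophages and of -1.56 in Arg1-positive cells without Nos2. The signs were opposite. With 1 library per genotype the difference was not tested. Over the alternatives the ratio in Nos2 macrophages ran between 0.35, where 2 companion genes were needed, and 1.41, where 8 more lineage genes had to be at 0. Prtn3, a granule protease, had 0.93 in Nos2 macrophages and -0.34 in Arg1-positive cells, also of opposite sign and not tested, with alternatives between 0.12 and 2.35. The ratios without the highest cell of each library were 0.89 for S100a8 and 1.03 for Prtn3.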

How the results depend on the processing

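The counts of 403 higher and 190 lower genes were 111 and 23 with no replicate block, 180 and 50 by DESeq2, 610 and 363 with 8 more lineage genes at 0, and 636 and 391 with P2ry12 of 1 UMI allowed. With no filter on low counts 521 fell, and with cells rich in granule or choroid plexus genes removed 586 rose and 368 fell. Allowing P2ry12, removing rich cells and leaving out the highest cell were chosen after seeing the data. Median-ratio scaling, thinning, doublet removal, Nos2 of 2 UMIs, 2 companions, Arg1 in members and the stricter filter kept both counts within 1.5 times. Without the block 20 of the 24 named genes passed, and by DESeq2 or after thinning 22. Values near 0 changed sign: Spr was -0.065 thinned, -0.039 with Nos2 of 2 UMIs and between -0.031 and 0.32 with 1 library left out, Asl -0.022 with Nos2 of 2 UMIs and between -0.023 and 0.047 with 1 library left out, Slc7a1 -0.047 thinned and -0.15 with more lineage genes, and Qdpr 0.39 thinned. The neutrophil list median was -0.14 with Arg1 in members. Il1b passed in 10 alternatives. The share ratio of 0.551 was 0.720, 0.768 and 0.425 over the other totals and after thinning. Genotype counts of 229 higher and 385 lower were 523 and 832 at 20 UMIs, 31 and 71 at 200 UMIs, and 110 higher when thinned. Camp was 0.94 thinned and 0.38 without the highest cells, and Ngp 0.89 and 1.38. Where no value names it, the cause was not tested. Leaving out a library leaves a value with no test, and with 2 pools neither mice nor preparation can be told apart from genotype. Apart from Stat4 and the setting of 20 UMIs, no genotype ratio was taken for genes under 50 UMIs.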
